A study of Danio rerio with 8 samples.

Results

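The nuclear genes for the subunits of the respiratory chain and of ATP synthase were followed in sorted zebrafish cells after a spinal cord lesion. They were taken from the deposited count table by symbol, as genes on nuclear chromosomes named ndufa, ndufb, ndufc, ndufs or ndufv plus a digit (without ndufa4l2a), sdha to sdhd, uqcr, cox4 to cox8 or atp5. This gave 93 of 31901 genes, of which 39 carry complex I symbols, 5 complex II, 8 complex III, 21 complex IV and 20 complex V. Subunit genes with other symbols are outside the set. The identifiers of 31 genes are paired with a zebrafish symbol in the reference table. For the other 62, a symbol in capitals was resolved to a zebrafish gene by shared neighbouring genes, and all 62 lay on the same chromosome in both builds. Symbols do not always match function: NDUFA4 is known in mammals as a complex IV subunit, atp5if1a and atp5if1b encode inhibitors of ATP synthase, cox7a2l encodes a factor that joins complexes III and IV, and ndufa9b is a pseudogene in the RefSeq table.

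The cells were GFP-positive cells sorted from BAC(pdgfrb:Gal4ff)ncv24;UAS:GFP larvae at 4 days post fertilization, in which a pdgfrb promoter drives GFP through Gal4. Lesioned larvae had a mechanical lesion of the spinal cord and were taken at 1 day post-lesion, and unlesioned larvae of the same line and age served as controls, with 4 libraries in each group and the transgene in both. The labels describe the sorted cells as myoseptal and perivascular, that is, cells of the connective tissue between muscle segments and cells around vessels, and they do not say how many larvae or clutches a library holds. What the p-values measure is thus the spread between libraries, part or all of which may be technical.

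Oxidative phosphorylation makes ATP in the inner mitochondrial membrane. Complexes I (NADH dehydrogenase) and II (succinate dehydrogenase) pass electrons to coenzyme Q, complex III (cytochrome bc1) passes them to cytochrome c, complex IV (cytochrome c oxidase) passes them to oxygen, and complex V (ATP synthase) uses the resulting proton gradient. The catalytic centre of complex IV and part of complexes I, III and V are encoded on mitochondrial DNA, while all other subunits, and complex II as a whole, come from nuclear genes. Several complex IV subunits exist as alternative isoforms, and in mammals some of these are typical of heart and skeletal muscle.

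Total counts per library ranged from 19552807 to 25358885. The reporter's own gene pdgfrb averaged 195 ± 68.5 CPM in the lesioned and 213 ± 27.4 CPM in the unlesioned libraries (SD, n = 4 each), where CPM is the count scaled to the library size after TMM adjustment. All 11 genes of a fibroblast list and all 10 of a mural cell list had counts, with sums of 13401 to 20847 CPM in lesioned and 8980 to 18934 CPM in unlesioned libraries for the fibroblast list, and 4303 to 7670 CPM in lesioned and 7561 to 22825 CPM in unlesioned libraries for the mural list. Skeletal muscle markers summed to 751 to 5868 CPM in lesioned and 1465 to 3734 CPM in unlesioned libraries, and epidermal markers to 411 to 3181 CPM in lesioned and 123 to 4642 CPM in unlesioned libraries. Other summed markers reached at most 23.2 CPM (neurons), 12.7 CPM (glia), 3.77 CPM (erythroid cells), 41.7 CPM (leukocytes), 52.2 CPM (endothelium) and 1.15 CPM (cardiac muscle) in lesioned libraries. In unlesioned libraries the same markers reached at most 77.5 CPM (neurons), 230 CPM (glia), 9.32 CPM (erythroid cells), 88.9 CPM (leukocytes), 49.5 CPM (endothelium) and 0.61 CPM (cardiac muscle), and the cardiac genes cmlc1 and nppa had no count.

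Most of the nuclear subunit genes had higher levels in the lesioned libraries, by a modest amount, and no gene passed the test on its own. Of the 93 genes, 90 passed the filter on low counts, and the log2 fold change of lesioned over unlesioned was above 0 for 81 of them (90.0%, against 47.7% of the 15759 genes tested). The median log2 fold change was 0.44 over the 90 genes, with a middle range of 0.22 to 0.58, against −0.04 over all genes tested, with a middle range of −0.53 to 0.46. The 3 genes not tested were ndufa4l2b, ndufb4 and cox5b2. Filtered genes are not all members, so these shares describe the 90 only. The level of ndufb4 cannot be read. It has 75.4% of its exon bases in common with other genes, and at most 1 count was assigned to it in any library.

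In edgeR's quasi-likelihood test with Benjamini-Hochberg adjustment over all genes, 0 of the 90 were called at an adjusted p under 0.05 in either direction, against 0.0190% of all genes called higher and 0.00% called lower. The lowest adjusted p among them was 0.136. Of the 90, 36 were higher at an unadjusted p under 0.05 (40.0%, against 6.07% of all genes) and 4 were lower (4.44%, against 5.48%). Every lesioned library lay above every unlesioned library for 34 genes (37.8%, against 5.32% of all genes) and below for 2 (2.22%, against 3.91%). Without lesioned 1, the counts at an unadjusted edgeR p under 0.05 were 21 higher and 1 lower, and without lesioned 2 or lesioned 4 the lower count was 2. Shares over all genes were not taken for these fits. DESeq2 on the same counts called 9 of the 90 higher, against 1.75% of all genes, and 0 lower, against 1.54%. The 9 were atp5mc3a, atp5md, ndufc1, ndufa7, cox7a2l, ndufb5, atp5mc1, uqcrq and cox6c.

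**Figure D1:**
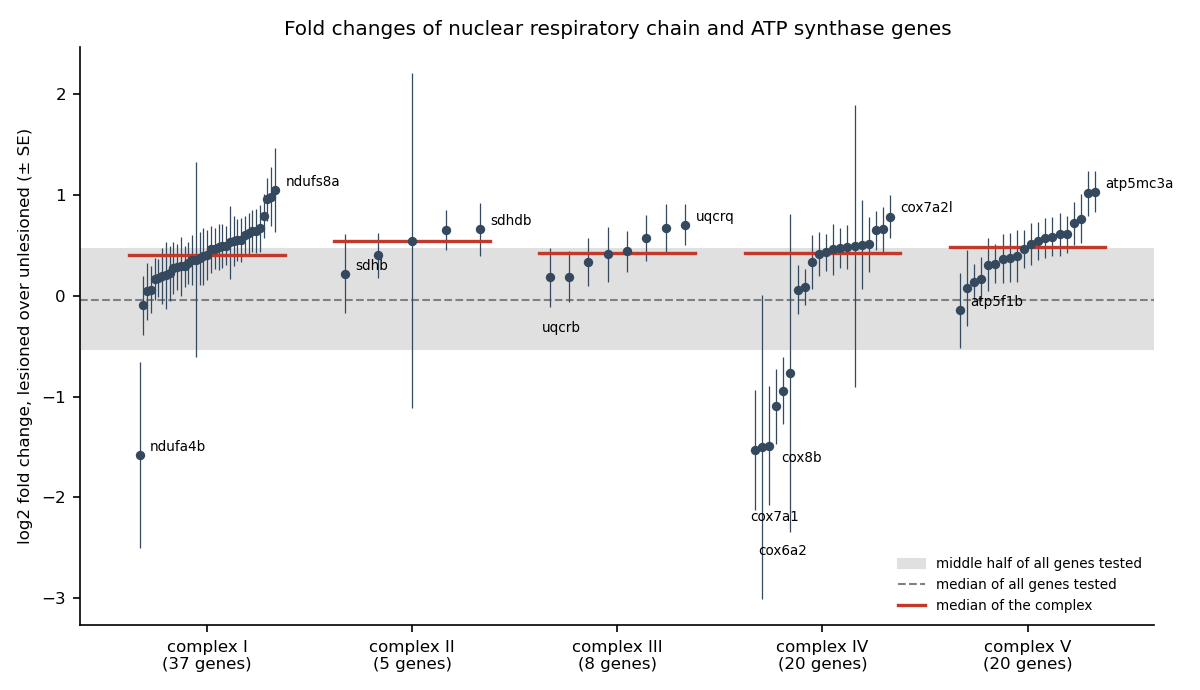
Log2 fold change (lesioned over unlesioned, ± SE of the edgeR fit) of the 90 tested genes, ordered within each complex, with the median of each complex as a red line, the median of all genes tested as a dashed line and their middle range as a grey band. The medians of all 5 complexes lie between 0.41 and 0.55, above the all-gene median of −0.04, and the genes near −1.5 are ndufa4b and the complex IV genes cox7a1, cox6a2 and cox8b.

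The medians of the 5 complexes were close to each other. They were 0.41 for complex I, 0.55 for complex II, 0.43 for complex III, 0.43 for complex IV and 0.49 for complex V. The complex II median is the value of sdhda (0.55 ± 1.66, SE), a gene with at most 1.504 CPM in any library. A positive log2 fold change was seen for 35 of 37 complex I genes, 5 of 5 in complex II (sdhda among them), 8 of 8 in complex III, 14 of 20 in complex IV and 19 of 20 in complex V. Complex IV was the most divided, with 6 negative genes that include all 4 genes with an unadjusted p under 0.05 in the lower direction. Differences between complexes were not tested.

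Summed over all 93 genes, the level was 13494, 12131, 15039 and 13396 CPM in lesioned libraries 1 to 4, against 9554, 9454, 13729 and 9630 CPM in unlesioned libraries 1 to 4. The groups overlapped through unlesioned 3, which lay above lesioned 1, 2 and 4, while the other unlesioned libraries lay below every lesioned one. That overlap depends on the scaling. The TMM factor, by which CPM is divided, was 0.822 for unlesioned 3, against 1.09, 1.102 and 1.114 for lesioned 1, 2 and 4. It thus raised the level of unlesioned 3 and lowered those of lesioned 1, 2 and 4. Sums per library are given with TMM only. The mean was 13515 ± 1191 CPM in lesioned and 10592 ± 2093 CPM in unlesioned libraries (SD, n = 4 each), a ratio of 1.28. The ratio was 1.32 for complex I, 1.39 for complex II, 1.36 for complex III, 1.26 for complex IV and 1.24 for complex V. In bulk libraries such as these, fewer cells of a type and less RNA per cell cannot be told apart.

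**Figure D2:**
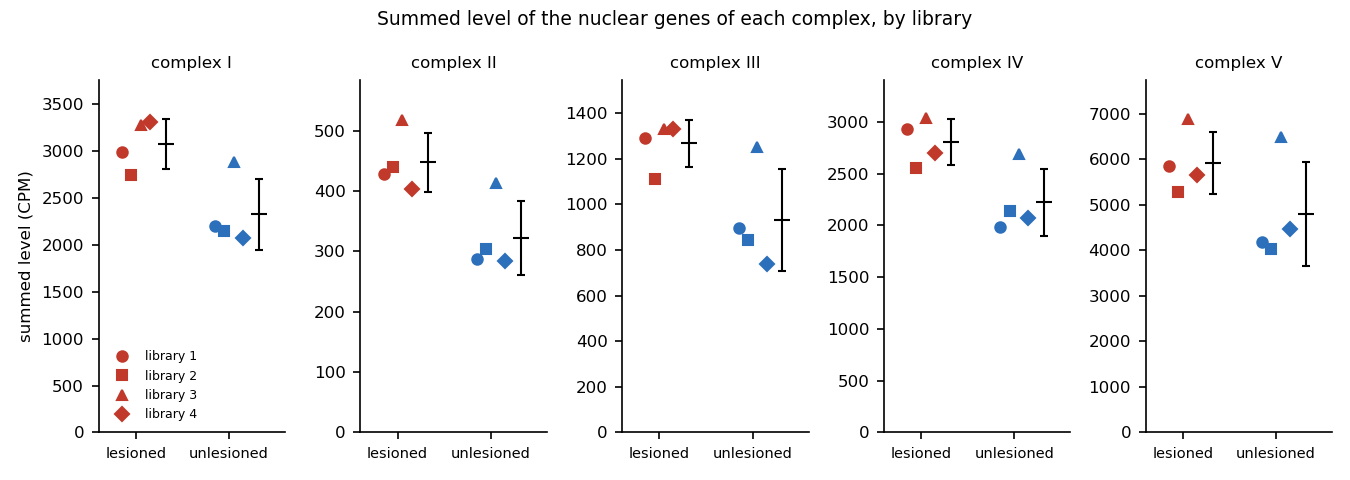
Summed level (CPM) of the nuclear genes of each complex in each library, lesioned in red and unlesioned in blue, with a marker shape per library number and the mean ± SD (n = 4) beside the points. Unlesioned 3 (triangle) stands above the other unlesioned libraries in every complex, as with 2885 CPM in complex I against 2070 to 2203 CPM in the other 3.

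The libraries of both groups carry the same numbers, 1 to 4, and same-numbered libraries deviated from their group means together. The labels state no pairing by number, and numbers 1 and 2 were not told apart. Between same-numbered libraries, the median log2 difference over the 90 genes was 0.49 for number 1, 0.39 for number 2, 0.21 for number 3 and 0.72 for number 4. It was between −0.05 and 0.02 at each number over all genes. The lesioned library was the higher one for 82, 76, 64 and 74 of the 90 genes at numbers 1 to 4, and 53 genes were higher at each of the 4 numbers (58.9%, against 13.5% of all genes). In the other direction, 4 genes were lower at each number (4.44%, against 12.9%). The small difference at number 3 goes with the high level of unlesioned 3, which held the highest value of its group for 62 of the 90 genes. Without both libraries numbered 3, a choice made after seeing the data, 81 of 90 genes were above 0, not all of them the same genes (cox7a2b turned negative and cox4i1l positive), and the median was 0.53.

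**Figure D3:**
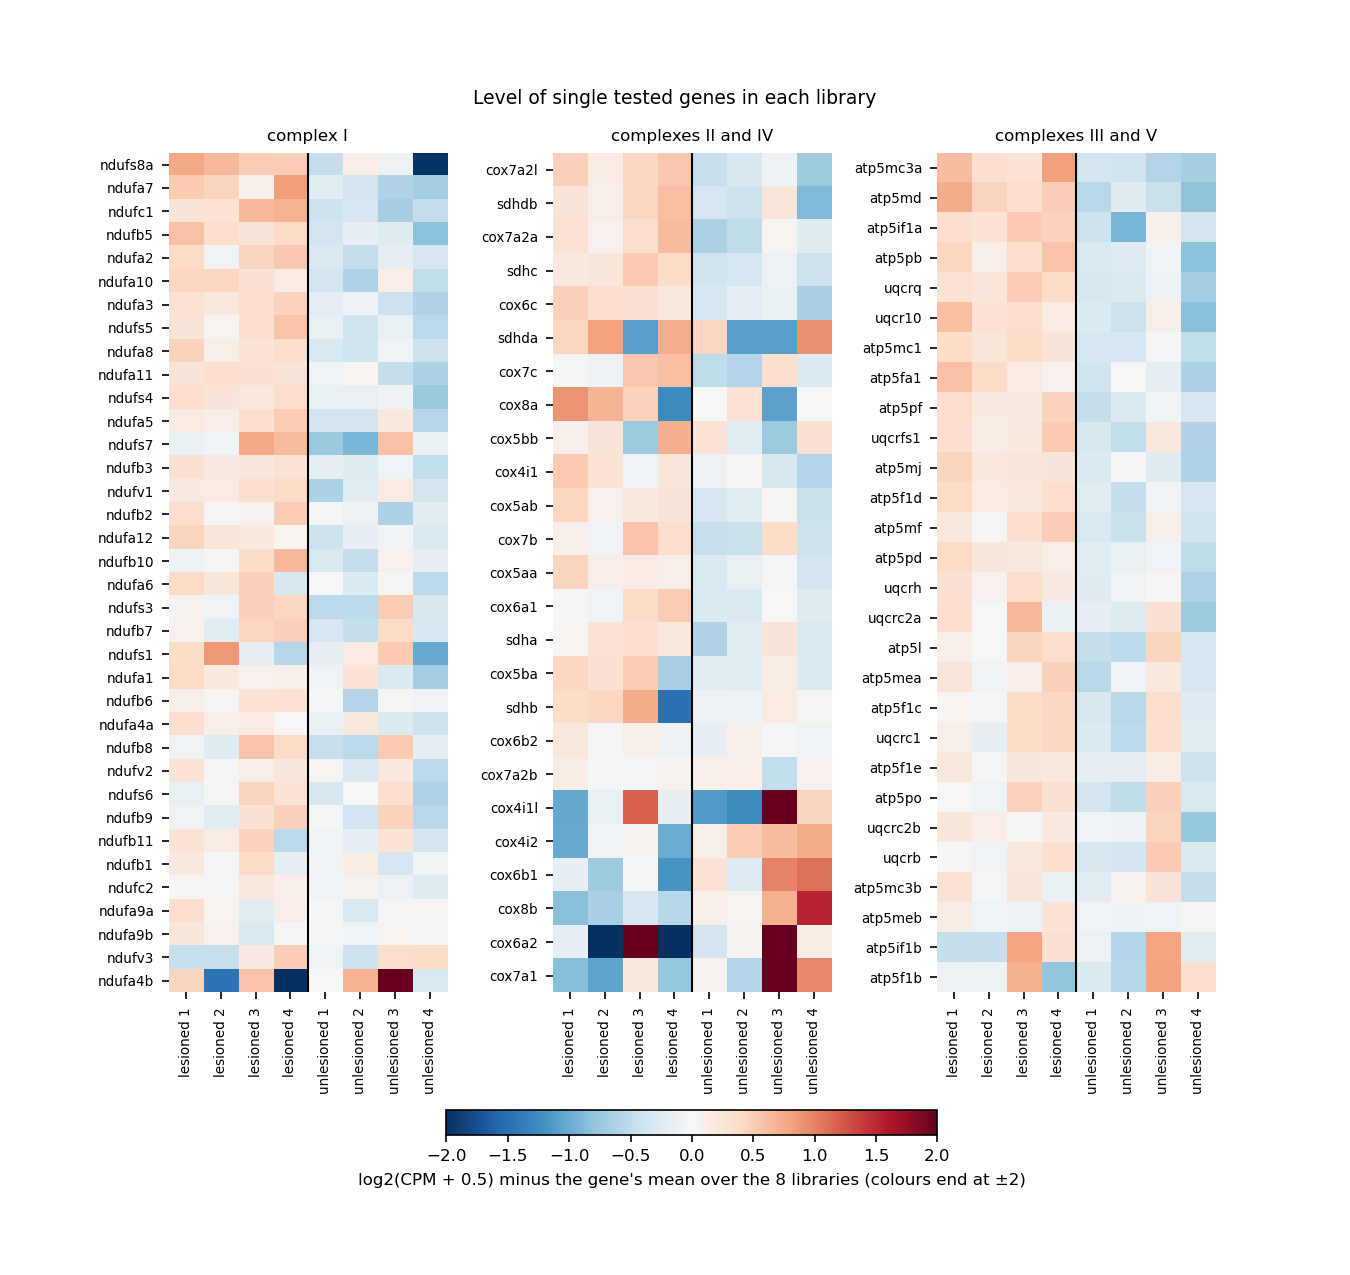
Level of single tested genes in each library, as log2(CPM + 0.5) minus the gene's mean over the 8 libraries, lesioned on the left of the black line and unlesioned on the right, ordered by fold change within each panel. Red prevails on the left and blue on the right except at the foot of the panels, where cox4i2, cox6b1, cox8b, cox6a2, cox7a1 and ndufa4b run the other way, and unlesioned 3 is redder than the other unlesioned libraries.

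In complex I, the 3 genes with the lowest p encode accessory subunits, which surround the electron-transferring core. The gene ndufc1 (chromosome 14, 46114659 to 46117345 on GRCz11) had 61.2, 61.9, 80.2 and 83.5 CPM in lesioned libraries 1 to 4, against 38.3, 40.5, 32.1 and 36.8 CPM in unlesioned libraries 1 to 4. The groups did not overlap, and all 4 lesioned values were above the highest unlesioned one. Its log2 fold change was 0.96 ± 0.21 (SE, edgeR adjusted p = 0.159). The gene ndufb5 had 88.8, 74.9, 70.6 and 77.8 CPM in lesioned and 44.8, 52.7, 49.8 and 33.2 CPM in unlesioned libraries, also without overlap (0.79 ± 0.22, adjusted p = 0.214). The gene ndufa7 had 26.4, 25.1, 19.6 and 33.0 CPM in lesioned and 15.5, 14.0, 11.9 and 11.1 CPM in unlesioned libraries, again with no overlap (0.98 ± 0.29, adjusted p = 0.229). That each of the 3 was higher at all 4 library numbers follows from the lack of overlap. Over the 90 genes, 58.9% were higher at each number, against 13.5% of all genes.

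The 2 complex I genes with the highest level per length, ndufb10 and ndufb8, encode accessory subunits of the membrane arm. Their mean levels over all libraries were 183 and 202 CPM per kb of exon. Their groups overlapped, with log2 fold changes of 0.46 ± 0.24 for ndufb10 (adjusted p = 0.511) and 0.29 ± 0.29 for ndufb8 (adjusted p = 0.789). For ndufb8, lesioned libraries had 190, 171, 299 and 263 CPM and unlesioned libraries 146, 140, 289 and 178 CPM, so that number 3 was the highest of each group. Across complex I, 15 genes had groups that did not overlap, all in the higher direction (5.32% of all genes), and 14 had an unadjusted p under 0.05, also all higher (6.07% of all genes).

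Complex I also holds the iron-sulphur and flavin proteins that carry electrons from NADH. These core genes were chosen after their values were seen. The gene ndufs8a, whose product holds iron-sulphur clusters, had 36.9, 33.6, 30.6 and 30.4 CPM in lesioned and 15.1, 23.5, 19.7 and 5.12 CPM in unlesioned libraries. The groups did not overlap, and unlesioned 4 was the lowest value (1.05 ± 0.42, adjusted p = 0.358). Further core genes had log2 fold changes of 0.53 ± 0.36 for ndufs7, 0.50 ± 0.22 for ndufv1, 0.39 ± 0.29 for ndufs3 and 0.28 ± 0.23 for ndufv2. The groups of each of these overlapped, with edgeR adjusted p of 0.649, 0.412, 0.683 and 0.719 in the same order. The value of ndufs1 (0.36 ± 0.97) cannot be read, since 98.3% of its exon bases are shared with ino80db and at most 2.01 CPM was assigned to it in any library.

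Complex II is the succinate dehydrogenase of the citric acid cycle. Its membrane anchor gene sdhc had 68.5, 70.4, 86.7 and 77.5 CPM in lesioned and 45.6, 46.9, 55.2 and 44.3 CPM in unlesioned libraries, without overlap (0.66 ± 0.20, adjusted p = 0.229). The other anchor gene, sdhdb, had 130, 117, 145 and 164 CPM in lesioned against 85.5, 79.9, 128 and 58.1 CPM in unlesioned libraries, and overlapped through unlesioned 3 (0.66 ± 0.26, adjusted p = 0.352). The flavoprotein gene sdha had a log2 fold change of 0.40 ± 0.22 (adjusted p = 0.549). The iron-sulphur gene sdhb, chosen after its values were seen, had 112, 116, 146 and 30.5 CPM in lesioned and 80.3, 80.8, 97.0 and 88.4 CPM in unlesioned libraries. It was higher than all unlesioned values in lesioned 1, 2 and 3 and lower than all of them in lesioned 4 (0.22 ± 0.39). The paralog sdhda had at most 1.504 CPM in any library, so its log2 fold change (0.55 ± 1.66) cannot be read.

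In complex III, the small subunit genes uqcrq and uqcr10 did not overlap between the groups. The gene uqcrq had 83.7, 80.8, 97.4 and 90.7 CPM in lesioned and 55.0, 56.1, 63.0 and 42.0 CPM in unlesioned libraries (0.71 ± 0.21, adjusted p = 0.229). The gene uqcr10 had 171, 138, 144 and 127 CPM in lesioned and 93.6, 83.9, 123 and 63.0 CPM in unlesioned libraries (0.68 ± 0.24, adjusted p = 0.295). The Rieske iron-sulphur protein gene uqcrfs1 had a log2 fold change of 0.57 ± 0.23 (adjusted p = 0.355), and unlesioned 3, at 235 CPM, reached above lesioned 2 and 3. The abundant hinge protein gene uqcrh (203 CPM per kb) did not overlap either (0.44 ± 0.20, adjusted p = 0.449). The core protein gene uqcrc1 (177 CPM per kb) had 326, 270, 393 and 404 CPM in lesioned against 252, 212, 379 and 258 CPM in unlesioned libraries, with overlap through unlesioned 3 (0.34 ± 0.24). The paralogs of the other core protein, uqcrc2a and uqcrc2b, overlapped between the groups too (0.41 ± 0.27 and 0.19 ± 0.26).

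In complex V, the proton-driven rotor ring is built of subunit c, which several genes encode with a like mature protein. The subunit c gene atp5mc3a (chromosome 9, 2330798 to 2341127 on GRCz11) had the lowest p of all 90 genes. It had 317, 259, 249 and 366 CPM in lesioned libraries 1 to 4, against 158, 156, 138 and 131 CPM in unlesioned libraries 1 to 4. The lowest lesioned value was well above the highest unlesioned one, and the log2 fold change was 1.03 ± 0.20 (edgeR adjusted p = 0.136, DESeq2 adjusted p = 0.000785). The annotation shares 13.4% of its exon bases with another gene, and reads were counted without regard to strand. The paralog atp5mc1 had 395, 364, 397 and 369 CPM in lesioned and 240, 240, 300 and 219 CPM in unlesioned libraries, without overlap (0.61 ± 0.18, adjusted p = 0.229). The paralog atp5mc3b had 578, 467, 560 and 436 CPM in lesioned against 411, 497, 569 and 340 CPM in unlesioned libraries, with overlap (0.17 ± 0.22, adjusted p = 0.857).

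The small membrane subunit gene atp5md (chromosome 1, 49432137 to 49434892), known in mammals for its part in ATP synthase dimers, had 76.8, 63.0, 58.8 and 64.7 CPM in lesioned and 31.2, 38.9, 33.7 and 26.2 CPM in unlesioned libraries. No lesioned value came near the unlesioned ones (1.02 ± 0.22, edgeR adjusted p = 0.153, DESeq2 adjusted p = 0.00262). The catalytic beta subunit gene atp5f1b had the highest CPM of the whole set (per kb of exon, cox7c was higher) and a log2 fold change close to 0. It had 1082, 1093, 1918 and 679 CPM in lesioned and 963, 789, 2050 and 1465 CPM in unlesioned libraries, with a log2 fold change of −0.14 ± 0.37 (adjusted p = 0.944). The sign became positive without lesioned 4 (0.05), without unlesioned 3 (0.15) and under scaling by library size alone (0.02). The gamma subunit gene atp5f1c, the central stalk, had 608, 575, 763 and 786 CPM in lesioned against 471, 399, 753 and 492 CPM in unlesioned libraries (0.37 ± 0.24, adjusted p = 0.632). Across complex V, 10 genes had groups that did not overlap, all higher (5.32% of all genes), among them atp5pb of the peripheral stalk (0.72 ± 0.22), atp5f1d of the central stalk (0.55 ± 0.19) and the catalytic alpha subunit gene atp5fa1 (0.61 ± 0.22), these 3 chosen after their values were seen.

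The inhibitor genes atp5if1a and atp5if1b, have products that block the reverse reaction of ATP synthase. The gene atp5if1a had 90.6, 87.2, 104 and 99.6 CPM in lesioned and 53.3, 37.9, 77.4 and 55.9 CPM in unlesioned libraries, without overlap (0.76 ± 0.24, adjusted p = 0.244). The gene atp5if1b had 73.2, 73.4, 177 and 127 CPM in lesioned against 94.4, 67.5, 176 and 86.9 CPM in unlesioned libraries, high in the libraries numbered 3 of both groups (0.08 ± 0.38). As a share of the pair, counted per kb of exon, atp5if1b made up 42.0 ± 8.61% in lesioned and 54.4 ± 3.93% in unlesioned libraries (SD, n = 4 each), with overlap through lesioned 3 (exact two-sided permutation p = 0.0571, Benjamini-Hochberg adjusted p = 0.126 over 11 families).

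In complex IV, the genes with the lowest p were cox7a2l, cox6c and cox7a2a, whose products are small subunits or, for cox7a2l, a supercomplex factor. The gene cox7a2l had 121, 95.7, 116 and 127 CPM in lesioned and 63.1, 69.4, 81.0 and 52.5 CPM in unlesioned libraries (0.79 ± 0.21, adjusted p = 0.197). The gene cox6c had 146, 131, 129 and 122 CPM in lesioned against 82.4, 91.5, 94.8 and 66.6 CPM in unlesioned libraries (0.65 ± 0.20, adjusted p = 0.229). For cox7a2a the values were 276, 240, 287 and 347 CPM in lesioned and 146, 158, 234 and 190 CPM in unlesioned libraries (0.66 ± 0.22, adjusted p = 0.272). None of the 3, which were picked by low p, overlapped between the groups. Across complex IV, 5 of 20 tested genes were higher without overlap (5.32% of all genes). In the lower direction, 2 did not overlap (3.91% of all genes). The genes with the highest level per length were cox7c (827 CPM per kb) and cox5ba (416 CPM per kb), with log2 fold changes of 0.51 ± 0.27 and 0.34 ± 0.27 and groups that overlapped.

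A smaller set of 4 complex IV isoform genes ran in the other direction. They are the genes lower at an unadjusted edgeR p under 0.05, which make up 4.44% of the 90, against 5.48% of all genes. The gene cox4i2 (chromosome 23, 18944388 to 18951148 on GRCz11), the alternative form of the subunit through which ATP regulates the enzyme, had 13.03, 25.6, 28.1 and 13.2 CPM in lesioned and 29.1, 38.4, 41.2 and 44.8 CPM in unlesioned libraries. All lesioned values were below all unlesioned ones (−0.94 ± 0.34, edgeR adjusted p = 0.302). The gene cox6b1 had 33.1, 22.4, 36.1 and 16.04 CPM in lesioned against 45.2, 30.9, 74.2 and 80.0 CPM in unlesioned libraries, with overlap through unlesioned 2 (−1.10 ± 0.37, adjusted p = 0.276).

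The genes cox7a1 and cox8b, which in mammals are the heart and skeletal muscle forms, had lower mean levels than cox4i2 and cox6b1. The gene cox7a1 had 5.71, 4.88, 12.4 and 6.10 CPM in lesioned and 11.2, 6.91, 44.9 and 21.2 CPM in unlesioned libraries (−1.53 ± 0.60, adjusted p = 0.345), with overlap through lesioned 3. The gene cox8b had 1.96, 2.30, 2.98 and 2.46 CPM in lesioned against 4.24, 4.09, 6.69 and 12.2 CPM in unlesioned libraries, without overlap (−1.49 ± 0.59, adjusted p = 0.351). Each of the 4, which were picked by low p in this direction, was lower at every library number. For cox4i2 and cox8b this follows from the lack of overlap. Genes lower at every number make up 4.44% of the 90, against 12.9% of all genes. Without unlesioned 3, the log2 fold change of cox7a1 was −0.85.

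The main isoforms of the same families were higher or level. The gene cox4i1, the common form of subunit IV, had 242, 203, 160 and 198 CPM in lesioned and 157, 170, 134 and 112 CPM in unlesioned libraries, with overlap (0.49 ± 0.22, adjusted p = 0.424). The subunit Va genes cox5aa and cox5ab did not overlap between the groups, with log2 fold changes of 0.43 ± 0.19 and 0.48 ± 0.20. The gene cox6b2, the most abundant complex IV gene by CPM, had 602, 510, 563 and 484 CPM in lesioned and 467, 561, 508 and 491 CPM in unlesioned libraries, which overlapped widely (0.09 ± 0.18, adjusted p = 0.918). The genes cox6a1 (0.42 ± 0.22), cox8a (0.51 ± 0.44), cox7a2b (0.06 ± 0.24) and ndufa4a (0.29 ± 0.20) also overlapped, and lesioned 4 was low for cox8a, at 24.3 CPM against 81.5 to 111 CPM in the other lesioned libraries. The sign of cox7a2b turned without unlesioned 3. The paralogs cox4i1l and cox5bb, had at most 4.67 and 0.86 CPM.

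Levels of cell type markers are given beside these genes, and 0 markers were called. Of all genes tested, 47.7% were above 0, and 6.07% were higher and 5.48% lower at an unadjusted edgeR p under 0.05. In mice, Cox4i2 is also known as a marker of pericytes, and of 10 mural cell markers, 9 had a negative log2 fold change, 5 with an unadjusted p under 0.05 and 0 called, with a median of −0.97. Their most abundant genes were acta2 (3623 ± 1131 CPM in lesioned and 9028 ± 4234 CPM in unlesioned libraries, −1.32 ± 0.36) and myh11a (953 ± 104 CPM in lesioned and 1867 ± 1101 CPM in unlesioned libraries, −0.97 ± 0.35), both smooth muscle genes. Of 18 skeletal muscle markers tested, 15 were above 0, with a median log2 fold change of 1.295, and at an unadjusted p under 0.05 in edgeR 1 was higher and 2 were lower, with 0 called. Their most abundant genes, the muscle actins, ran in opposite directions, with 1.77 ± 0.79 for actc1b and −1.22 ± 0.40 for acta1a. Muscle markers summed to 2046, 751, 5868 and 3508 CPM in lesioned and 2619, 2936, 1465 and 3734 CPM in unlesioned libraries. Much of these sums came from the actins. For acta1a the values were 772, 331, 639 and 455 CPM in lesioned and 1603, 1031.5, 555 and 1918 CPM in unlesioned libraries. For actc1b they were 716, 124, 2805 and 1661 CPM in lesioned and 178.5, 646, 163 and 565 CPM in unlesioned libraries. The part of mural cells or of muscle cells in these results was not tested.

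Isoform use within families was compared as the share of each gene in the family's counts per kb, one value per library. The share of cox4i2 among the cox4 genes was 3.81, 8.49, 11.3 and 4.66% in lesioned and 11.99, 14.2, 18.0 and 22.6% in unlesioned libraries. The groups did not overlap, with means of 7.06 ± 3.48% in lesioned and 16.7 ± 4.65% in unlesioned libraries (SD, n = 4 each), and the exact two-sided permutation p of 0.0286 is the smallest that 70 arrangements allow. The share of cox7a2l among the cox7a genes was 23.1 ± 0.91% in lesioned and 19.1 ± 2.77% in unlesioned libraries, also without overlap (exact permutation p = 0.0286). As cox7a2l encodes a supercomplex factor, its share is not that of an alternative isoform. The cox7a2a, cox7a2b and cox7a1 shares were 57.7, 18.1 and 1.02% in lesioned and 51.7, 25.2 and 3.96% in unlesioned libraries (means). Their groups overlapped, and they were given no test. The share of cox6b1 among the cox6b genes was 10.9 ± 2.67% in lesioned against 21.8 ± 7.64% in unlesioned libraries, overlapping through unlesioned 2 (exact permutation p = 0.0571). After adjustment over the 11 families none passed, with an adjusted p of 0.126 for each of cox4i2, cox7a2l and cox6b1.

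The c ring family also held genes whose shares did not overlap between the groups, atp5mc3a and atp5mc3b. The share of the tested gene, atp5mc1, was 40.4 ± 1.29% in lesioned and 36.1 ± 2.39% in unlesioned libraries (exact permutation p = 0.0571, adjusted p = 0.126). This share overlapped, as lesioned 1 (38.6%) lay below unlesioned 4 (38.9%). The smaller share, atp5mc3a, was 14.7, 14.1, 12.1 and 19.3% in lesioned and 11.4, 10.22, 7.82 and 11.1% in unlesioned libraries, and the largest, atp5mc3b, was 46.7, 44.3, 47.4 and 39.9% in lesioned against 52.0, 56.7, 56.3 and 50.1% in unlesioned libraries. Both were without overlap between the groups, in opposite directions. Shares of a family add up to the whole, so a rise in some goes with a fall in others. Of all shares compared, only those of cox4i2 and cox7a2l were also without overlap. The atp5mc3a and atp5mc3b shares were given no test of their own, since the test was set for the gene with the middle level.

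In the other 6 families, the exact permutation p of the share was 0.114 or more and the groups overlapped. The cox5ab share was 32.4 ± 1.296% in lesioned and 31.6 ± 0.94% in unlesioned libraries (exact permutation p = 0.371), and the uqcrc2a share was 37.2 ± 6.96% in lesioned and 34.2 ± 1.33% in unlesioned libraries (p = 0.543 in the same exact test). The cox8b share was 4.20 ± 3.40% in lesioned and 12.1 ± 7.10% in unlesioned libraries (exact p = 0.114). The cox6a2, cox5b2 and ndufa4b shares were 11.7 ± 15.3%, 0.47 ± 0.79% and 4.42 ± 3.75% in lesioned, against 26.5 ± 25.9%, 3.501 ± 6.78% and 14.1 ± 13.3% in unlesioned libraries, with exact permutation p of 0.457, 0.686 and 0.171. Without unlesioned 3, the difference in share, lesioned minus unlesioned, was −1.90 percentage points for cox6a2, against −14.8 with all libraries, 0.36 for cox5b2, against −3.03, and −2.99 for ndufa4b, against −9.64.

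**Figure D4:**
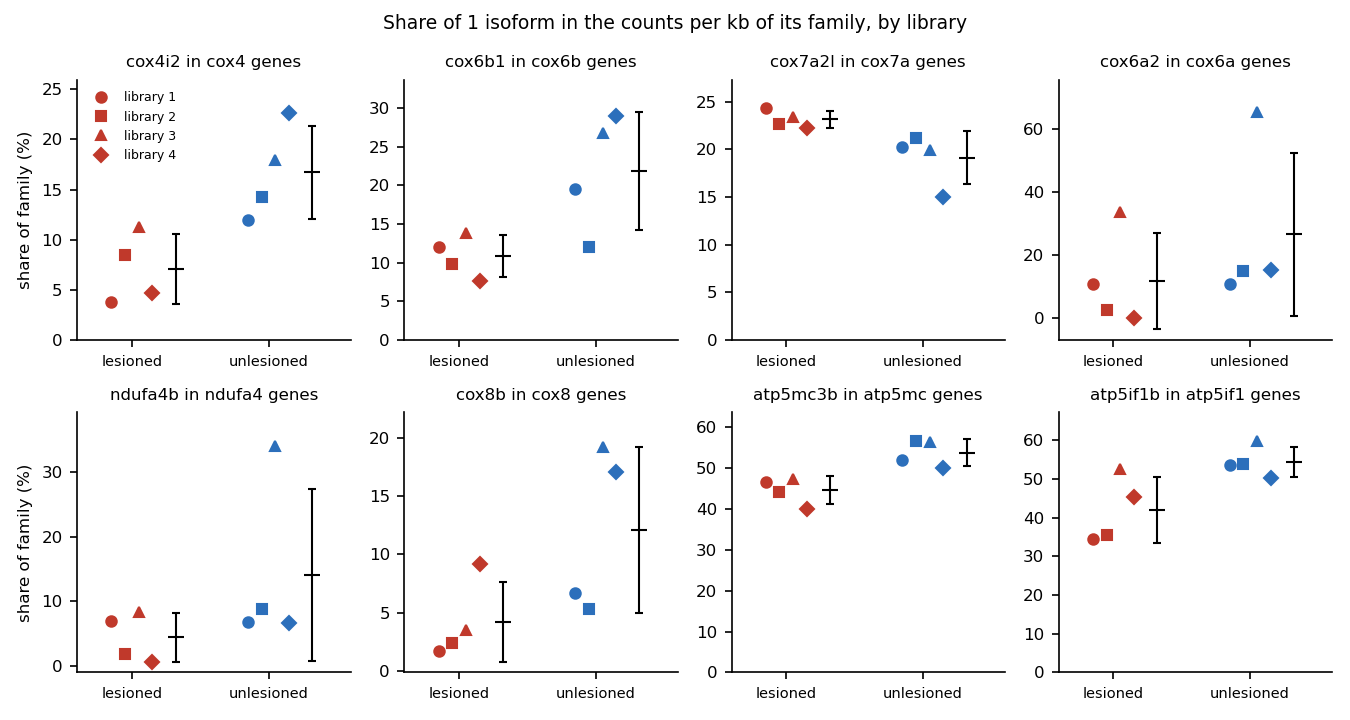
Share (%) of a gene in the counts per kb of its family in each library, lesioned in red and unlesioned in blue, with a marker shape per library number and mean ± SD (n = 4) beside the points. The cox4i2 and atp5mc3b shares are lower in all lesioned than in all unlesioned libraries and the cox7a2l share is higher, while cox6a2 and ndufa4b have their highest values in library 3 of each group (triangles).

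Among these 3 genes, cox6a2 and cox5b2 were high in both libraries numbered 3, as was cox7a1 in part. For ndufa4b only unlesioned 3 stood apart, since its 8.45 CPM in lesioned 3 was close to the 7.71 CPM in lesioned 1. The gene cox6a2, in mammals the muscle form of subunit VIa, had 4.56, 0.90, 25.3 and 0 CPM in lesioned and 3.83, 5.45, 72.0 and 5.78 CPM in unlesioned libraries. The cox5b paralog cox5b2 had 0.21, 0.33, 5.02 and 0.04 CPM in lesioned against 0.46, 0.05, 36.9 and 0.09 CPM in unlesioned libraries, and was too low in most libraries to be tested. The gene ndufa4b had 7.71, 1.68, 8.45 and 0.56 CPM in lesioned against 5.56, 9.27, 35.7 and 4.42 CPM in unlesioned libraries. The highest value of each gene was in unlesioned 3, and for all 3 lesioned 3 was the highest of its group. Without unlesioned 3, the log2 fold change of cox6a2 was 0.61, against −1.50 ± 1.51 with all libraries.

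The same libraries held several genes of ion-transporting epithelia, from a list of 18 genes of kidney tubule and skin ionocytes chosen after these values were seen. Their summed level was 13.9, 26.7, 1859 and 31.2 CPM in lesioned and 35.2, 12.1, 2353 and 63.7 CPM in unlesioned libraries. The sodium pump gene atp1a1a.3 had 964 CPM in lesioned 3 and 642 CPM in unlesioned 3, and at most 2.42 CPM in the other 6 libraries. The sodium-proton exchanger gene slc9a3.2 had 243 CPM in lesioned 3 and 110 CPM in unlesioned 3, and the kidney cadherin gene cdh17 had 282 CPM in lesioned 3 and 614 CPM in unlesioned 3. Not all listed genes did so. The ionocyte genes foxi3a, ca15a and trpv6 were at most 0.048 CPM in both libraries, foxi3b had 4.43 CPM in lesioned 3 and 0.048 CPM in unlesioned 3, and slc12a10.2 was highest in lesioned 4. The part of such cells in the levels of the subunit genes in these libraries was not tested. Without both libraries numbered 3, the medians of complexes I to V were 0.52, 0.55, 0.48, 0.38 and 0.60.

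**Figure D5:**
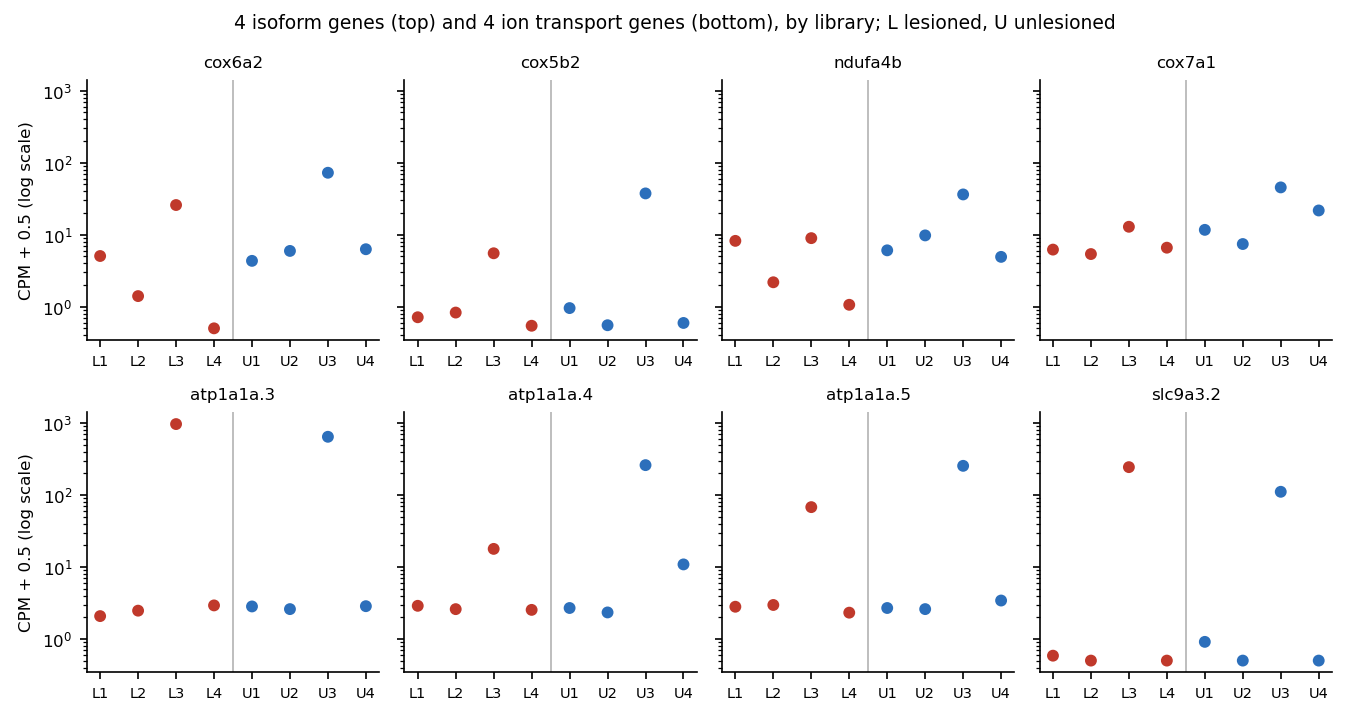
CPM + 0.5 on a log axis in each library (L lesioned in red, U unlesioned in blue) for the subunit genes cox6a2, cox5b2, ndufa4b and cox7a1 (top) and 4 ion transport genes chosen after their values were seen (bottom). The genes of both rows reach their highest values in libraries numbered 3, with 964 CPM of atp1a1a.3 in lesioned 3 and 36.9 CPM of cox5b2 in unlesioned 3.

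The subunit genes are short, with a median exon length of 914 bases against 2515 over all genes tested. The difference was of like size in each bin of length. For genes under 1 kb, the median log2 fold change was 0.45 for the 50 subunit genes and 0.03 for 1345 other genes. From 1 to 2 kb it was 0.39 for 30 subunit genes and −0.07 for the others, and over 2 kb it was 0.44 for 10 subunit genes and −0.05 for the others. By mean level, 3 of 6 subunit genes under 10 CPM were above 0 (median −0.20), 39 of 44 from 10 to 100 CPM (0.44), 39 of 39 from 100 to 1000 CPM (0.46) and 0 of 1 above that (−0.14). The shares of other genes above 0 at these levels were 47.9%, 48.0%, 43.1% and 33.0%. In a combined bin added after the values were seen, under 1 kb and 10 to 1000 CPM, the 46 subunit genes had a median of 0.45 and 454 other genes a median of 0.21, with 64.3% above 0.

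Other genes of the pathway were read in the same fit, from lists chosen with results of these data known, and 0 genes were called in any of these lists. Of all genes tested, 47.7% were above 0, and 6.07% were higher and 5.48% lower at an unadjusted edgeR p under 0.05. These shares stand beside each list below. Of 18 citric acid cycle genes tested, 18 were above 0, with a median log2 fold change of 0.37 and 2 genes at an unadjusted p under 0.05. These were idh3g (a subunit of NAD-dependent isocitrate dehydrogenase, 72.6 ± 12.6 CPM in lesioned and 45.7 ± 10.33 CPM in unlesioned libraries, 0.67 ± 0.24) and suclg1 (succinate-CoA ligase, 0.58 ± 0.23). The most abundant, mdh2 (malate dehydrogenase), had 0.27 ± 0.20. Of 58 assembly factors, which build the complexes without being part of them, 43 were above 0 with a median of 0.41, 8 were higher and 0 lower at an unadjusted p under 0.05. The lowest p were those of tmem242 (1.26 ± 0.33) and coa5 (1.05 ± 0.30), while the most abundant, higd1a, had −0.47 ± 0.38.

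In the list of carriers and cytochrome c genes, 4 of 9 tested were above 0, with a median of −0.13. At an unadjusted edgeR p under 0.05, 0 were higher and 1 was lower. Its most abundant gene, the ATP/ADP carrier gene slc25a5, had 3031 ± 812 CPM in lesioned and 3306 ± 576 CPM in unlesioned libraries (−0.13 ± 0.25). The mitochondrial creatine kinase gene ckmt1 had −1.14 ± 0.51, and the outer membrane channel gene vdac2 0.40 ± 0.22. Of 14 genes of coenzyme Q synthesis, 8 were above 0, with a median of 0.23 and a middle range of −0.42 to 1.00. At an unadjusted edgeR p under 0.05, 2 were higher and 1 was lower. The lowest p were those of pdss1 (1.35 ± 0.35), which makes the side chain, and coq5 (1.26 ± 0.44), both without overlap. The most abundant, coq10b, had −0.81 ± 0.41.

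Of 19 regulators of respiratory genes, 7 were above 0, with a median of −0.10. At an unadjusted edgeR p under 0.05, 1 was higher and 1 lower. The gene gabpb2a, for a partner of the ETS factor GABP, which in mammals binds promoters of subunit genes, had 14.99, 7.10, 11.8 and 14.0 CPM in lesioned and 2.96, 2.62, 2.55 and 1.65 CPM in unlesioned libraries. The groups were well apart (2.29 ± 0.47, edgeR adjusted p = 0.153). The gene pparaa was at most 0.30 CPM in lesioned and between 0.89 and 1.78 CPM in unlesioned libraries, and yy1a had −0.63 ± 0.31.

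The subunits encoded on mitochondrial DNA, which join the nuclear ones in complexes I, III, IV and V, lay close to the median of all genes. Of 13 such genes, 7 were above 0, the median was 0.01 and 0 had an unadjusted p under 0.05 in edgeR. The gene mt-nd2 had 0.30 ± 0.19, mt-nd3 0.30 ± 0.20 and mt-co1 −0.11 ± 0.21. Summed over the 13 genes, the level was 34582, 35620, 53401 and 42532 CPM in lesioned and 34307, 35295, 70190 and 43975 CPM in unlesioned libraries. Numbers 1 and 2 were low and 3 and 4 high in both groups, with unlesioned 3 the highest, as it was for the nuclear genes within its group. The difference between the nuclear and the mitochondrial genes was not tested.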

How the data were processed

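RNA of GFP-positive cells was sequenced on a NextSeq500 after SMARTSeq 2 library construction, per the labels. The authors deposited raw counts per gene, with no normalization; per the submitters' processing notes, bcl2fastq 2.19.1, GSNAP and featureCounts 1.6.2 were used with GRCz11, while the file header names featureCounts 1.6.3, with Ensembl 92, strand setting 0 and reads of mapping quality 1 or more. Reads of overlapping or antisense genes therefore cannot be told apart: 15 of the 93 genes share exon bases with another gene, and 9 share over 10% (ndufb11, ndufb3, ndufb4, ndufs1, uqcrb, cox6a1, cox8a, atp5f1e and atp5mc3a). Reads carry no molecular identifiers, so counting error is understated.

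The 92 spike-in entries (at most 158 counts per library) were left out. The groups were fitted with edgeR 4.0.16 in R 4.3.3 (TMM, filterByExpr, robust quasi-likelihood F-test, two-sided, Benjamini-Hochberg over 15759 genes, called at an adjusted p under 0.05). DESeq2 1.42.0 and limma 3.58.1 (voom) were alternatives, together with other scalings and filters, a replicate block and left-out libraries. Isoform shares (counts per kb) were compared by exact permutation over 70 arrangements. Where the names table had capitals, symbols came from a RefSeq table of another build, by comparing 15 neighbours a side and asking for 2 in common, and 99.9% of 11118 genes so named lay on the same chromosome there.

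Genes named are, per complex, the 3 with the lowest p and the 2 with the highest counts per kb, all members of isoform families and, per other list, the 2 with the lowest p and the most abundant; others are said to be chosen after their values were seen. The members and lists were chosen with earlier results of these data known. Correlations of deviations from group means across genes were 0.192, 0.182, 0.232 and 0.154 for libraries of the same number, all over 0.1. The number entered as a block in an alternative fit only. The fit reported and the exact permutation of shares used no pairing. The labels state no pairing by number, and numbers 1 and 2 were not told apart, since lesioned 1 correlated at 0.199 with unlesioned 2 and lesioned 2 at 0.182 with unlesioned 1. 1 gene of the set enters the counts and sums but is not reported singly here. Promoter motifs and protein sequences were not analysed here.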

Additional observations from a re-analysis of the deposited data

Results flagged for a closer look

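Values that stand apart from the other 3 libraries of their group, by Dixon's test at the 95% level, were found in 17 of 124 groups of 4 examined. Chance gives about 1 in 20 for independent groups. These groups are not independent, since some genes enter by level, by share and within sums, so the excess cannot be read from this count. Most of the values that stand apart were in unlesioned 3. In that library cox5ba was at 287 CPM (214 to 223 CPM in the other 3), cox6a1 at 58.1 CPM, cox6a2 at 72.0 CPM, cox5b2 at 36.9 CPM and ndufa4b at 35.7 CPM, all above the others, while cox7a2b was below them at 23.3 CPM (35.0 to 36.2 CPM). Unlesioned 3 also stood above its group in the summed level of all 93 genes (13729 CPM), of complex I (2885 CPM) and of complex II (414 CPM). Among isoform shares in unlesioned 3, cox5ab was at 33.0%, cox5b2 at 13.7%, cox6a2 at 65.2% and ndufa4b at 34.0%.

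In lesioned 3, cox5b2 stood apart at 5.02 CPM with a share of 1.66%, and cox7a1 at 12.4 CPM. In lesioned 1, cox5aa was at 251 CPM, against 199 to 206 CPM in the other lesioned libraries.

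The spike-in entries, which no comparison used, held 86 counts in lesioned 3, 64 in lesioned 4, 158 in unlesioned 3 and 87 in unlesioned 4, against at most 3 in libraries 1 and 2 of both groups. The labels mention no spike-ins.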

How the results depend on the processing

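No gene of the set was called by edgeR or limma voom under any setting tried, and DESeq2 called 9 higher and 0 lower. The median log2 fold change over the set stayed between 0.38 and 0.60 over all settings, against 0.44 in the fit reported, and 78 or more genes were above 0 in each setting (67 where genes that share exon bases were left out), not always the same genes. Scaling by library size alone moved the median of all genes to 0.12 and that of the set to 0.60 (complex I 0.58, complex IV 0.59, complex V 0.66), with 56 genes at an unadjusted edgeR p under 0.05 in the higher direction and a log2 ratio of 0.51 for the summed complex IV level. The distance from the all-gene median was 0.48 with TMM and 0.49 without. Levels in CPM per library, and the overlap of groups read from them, are given with TMM only. Shares of all genes at an unadjusted edgeR p under 0.05 were taken for the fit reported only. The counts at that p in other settings, here and below, thus have no such share beside them.

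The fit with a replicate block gave a median of 0.44, with 42 genes higher and 4 lower at an unadjusted edgeR p under 0.05 and 0 called, and no call changed. The paired exact sign-flip test of the isoform shares cannot go below 0.125. Shares of counts not divided by length gave an exact permutation p of 0.0857 for cox7a2l and kept 0.0286 for cox4i2. Within libraries 1 and 2 the median was 0.44 and 38 genes were higher and 0 lower at an unadjusted p under 0.05. Within libraries 3 and 4 it was 0.48, with 4 higher, 2 lower and a complex II median of 0.32.

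Leaving out 1 library at a time, the number of genes at an unadjusted p under 0.05 ran from 21 (without lesioned 1) to 48 in the higher direction and from 1 (without lesioned 1) to 4 in the lower, with 2 without lesioned 2 or lesioned 4. The complex IV median ran from 0.29 to 0.47. The sign of the log2 fold change turned for genes close to 0 or of low level, and the cause was not tested. That of atp5f1b became 0.022 under library size alone, 0.31 within libraries 1 and 2, 0.054 without lesioned 4 and 0.15 without unlesioned 3, with −0.47 at the low end (without lesioned 3). That of cox4i1l became 0.73 in limma voom, 0.42 with the block, 1.12 without unlesioned 3 (−1.83 without lesioned 3) and 0.052 without both libraries numbered 3. Without unlesioned 3, cox6a2 was at 0.61 (−3.58 without lesioned 3) and cox7a2b at −0.073, and cox7a2b was at −0.062 within libraries 1 and 2 and −0.049 without both numbered 3. Without lesioned 4, cox5bb was at −0.066, against 0.90 without lesioned 3. The gene atp5if1b was at −0.14 within libraries 1 and 2, −0.23 without lesioned 3, −0.086 without unlesioned 2 and −0.0063 without unlesioned 4. The difference in uqcrc2a share was −0.27 percentage points without lesioned 3 and −0.597 without both numbered 3, within left-out-library limits of −0.27 and 5.06, and that of the cox5b2 share was 0.36 without unlesioned 3, within −4.18 and 0.36.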
